A study of Mus musculus with 11 samples.

Results

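Genes of the acute-phase and antimicrobial response, 10 in all, were followed in fibroblasts of mouse back skin before and 5 days after wounding: the serum amyloids Saa1, Saa2 and Saa3, haptoglobin (Hp), pentraxin 3 (Ptx3), lipocalin 2 (Lcn2), the protease inhibitor Slpi, the calprotectin subunits S100a8 and S100a9, and the inducible nitric oxide synthase Nos2. They were taken by symbol, 10 of the 47643 gene symbols in the table of RPKM values (reads per kilobase of exon, scaled to the mapped reads of the library). All 10 symbols were found, and 9 passed the filter on low values (at least 2 of the 11 libraries at 1 RPKM or more), which kept 11979 genes. Saa2 did not pass.

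The libraries came from FACS-sorted, live CD45-CD140a+ cells (CD140a is Pdgfra) that were also negative for CD3, CD11b and F4/80, from mice of 9 to 12 weeks of mixed CD-1 and C57Bl/6 background. Wild-type (WT) mice were compared with mice that overexpress activin A in keratinocytes from an INHBA transgene under the keratin 14 promoter (Act), a promoter of basal keratinocytes and not of fibroblasts. Non-wounded skin (NS) and 5-day excisional wounds (5dw) were each sampled in both genotypes. There were 3 WT NS, 3 Act NS, 3 WT 5dw and 2 Act 5dw libraries, each from RNA of 3 animals pooled, and the Act 5dw libraries carried the numbers 1 and 3, because the authors had excluded Act 5dw number 2 at quality control. The p-values below therefore measure the spread between pools of animals. More RNA was put into the 5dw than into the NS libraries, and this difference cannot be told apart from wounding.

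Acute-phase proteins are secreted in large amounts by the liver during inflammation, under control of interleukin-6, interleukin-1 and the transcription factors C/EBP, STAT3 and NF-kB. Several are also made locally, in epithelia, macrophages and stromal cells. Serum amyloid A proteins bind lipids and attract leukocytes, and haptoglobin binds free haemoglobin. Lipocalin 2 withholds iron from bacteria by binding their siderophores, Slpi inhibits neutrophil elastase, calprotectin (the S100a8 and S100a9 heterodimer) binds zinc and manganese, and Nos2 makes nitric oxide from arginine.

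Several of these genes are neighbours. In the GRCm38 annotation (GENCODE M21), the 3 serum amyloid genes lie together on chromosome 7, with Saa3 at 46711998 to 46715700 and Saa1 at 46740497 to 46742980 on the minus strand and Saa2 at 46751790 to 46754313 on the plus strand. S100a8 (90668978 to 90670035, plus strand) and S100a9 (90692632 to 90695721, minus strand) are neighbours on chromosome 3, which also holds Ptx3 (66219910 to 66225805). Lcn2 (32384633 to 32388252) and Slpi (164354070 to 164389095) lie on chromosome 2, Hp on chromosome 8 (109575128 to 109579172) and Nos2 on chromosome 11 (78920787 to 78960254). All are annotated as protein coding.

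The sequence directly before the start site was read for 8 of the 10 genes, all but Hp and Nos2, from a table of RefSeq promoters (GRCm38.p6). The start sites are those of RefSeq and differ from the GENCODE ends given above, so that the windows of Lcn2 and Slpi lie wholly, and those of Saa2, Saa3 and S100a8 partly, inside the gene spans of that annotation. Of these 8 windows of 250 bases, 7 held the letters TTNNGCAA or their reverse complement TTGCNNAA, the core of C/EBP binding sites. Among the 32851 windows of the same length in the table, 9.6% held them on either strand. The exception was S100a8. The letters searched for NF-kB (GGGANNNNCC or GGNNNNTCCC, in 17.6% of all windows), STAT (TTCNNNGAA, 7.0%) and AP-1 (TGANTCA, 6.7%) were in none of the 8 windows. The Smad letters CAGACA or TGTCTG (17.1% of all windows) were in those of Saa1, Saa2 and S100a8, and TATAAA (12.4%) only in that of S100a8. A match is a description of the letters and not a binding site. The windows of 6 genes are printed below 5′ to 3′ on the gene's own strand, ending at the base before the start site, with every match in capitals. Saa1 and Saa2 are shown because they are nearly alike but their listed wound levels differed, although the split of reads between them is uncertain. Saa3, Lcn2 and Slpi are shown because they were high in wounds, and Ptx3 because it was high in every library.
Saa1, chr7:46742981-46743230, minus strand: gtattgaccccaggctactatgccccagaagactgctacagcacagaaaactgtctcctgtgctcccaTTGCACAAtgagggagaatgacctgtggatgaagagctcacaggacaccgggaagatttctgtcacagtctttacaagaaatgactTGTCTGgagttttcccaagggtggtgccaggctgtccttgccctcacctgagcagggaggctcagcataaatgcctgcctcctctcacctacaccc
Saa2, chr7:46751583-46751832, plus strand: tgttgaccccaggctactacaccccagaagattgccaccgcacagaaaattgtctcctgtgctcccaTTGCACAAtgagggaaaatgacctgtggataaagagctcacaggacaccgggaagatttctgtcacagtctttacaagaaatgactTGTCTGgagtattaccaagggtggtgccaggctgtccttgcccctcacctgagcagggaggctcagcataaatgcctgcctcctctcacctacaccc
Saa3, chr7:46715677-46715926, minus strand: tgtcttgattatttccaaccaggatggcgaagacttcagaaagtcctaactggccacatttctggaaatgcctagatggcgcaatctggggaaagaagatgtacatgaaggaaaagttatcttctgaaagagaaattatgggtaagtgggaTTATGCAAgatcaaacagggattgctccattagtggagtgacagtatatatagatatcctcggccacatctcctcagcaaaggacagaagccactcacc
Lcn2, chr2:32387740-32387989, minus strand: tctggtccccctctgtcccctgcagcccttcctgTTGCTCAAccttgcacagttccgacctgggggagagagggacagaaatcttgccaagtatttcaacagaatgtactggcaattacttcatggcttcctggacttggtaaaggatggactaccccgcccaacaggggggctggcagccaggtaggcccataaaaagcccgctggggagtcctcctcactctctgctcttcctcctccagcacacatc
Slpi, chr2:164356508-164356757, minus strand: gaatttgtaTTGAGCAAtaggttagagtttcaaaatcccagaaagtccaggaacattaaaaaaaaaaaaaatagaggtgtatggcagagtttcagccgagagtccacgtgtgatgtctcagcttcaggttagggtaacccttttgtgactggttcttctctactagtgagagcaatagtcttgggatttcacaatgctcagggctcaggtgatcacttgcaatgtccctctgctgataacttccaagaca
Ptx3, chr3:66219637-66219886, plus strand: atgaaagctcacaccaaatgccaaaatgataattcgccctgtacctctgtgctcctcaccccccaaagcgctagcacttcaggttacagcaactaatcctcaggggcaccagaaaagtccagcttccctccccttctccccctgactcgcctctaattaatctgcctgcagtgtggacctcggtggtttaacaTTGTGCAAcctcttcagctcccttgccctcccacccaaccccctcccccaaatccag

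The windows of Saa1 and Saa2 were identical at 94.8% of aligned positions, and share TTGCACAA and TGTCTG at nearly the same distance from the start site (182 and 183 bases for the first letter of TTGCACAA). Those of Saa1 and Saa3 were identical at 50.2%, against 48.1% for S100a8 and S100a9. In Saa3 the C/EBP letters were TTATGCAA, beginning 99 bases before the start site, and in Ptx3 they were TTGTGCAA, beginning 57 bases before it.

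The depth recovered from the values was 18649324 to 29718961 mapped reads in the NS libraries, 38740400 to 39702137 in the WT wounds and 20531289 and 25626294 in the Act wounds. The fibroblast identity of the sort was visible in Pdgfra (49.8 to 65.3 RPKM in NS, 29.6 to 37.3 in 5dw) and Col3a1 (1717 to 2995 and 7015 to 8652). The summed level of 10 pan-immune markers was 0.740 to 1.58 RPKM in NS and 1.35 to 2.38 in 5dw. Of these, Cd53 (group means of 0.0794 and 0.137 RPKM in NS, 0.711 and 0.593 in 5dw, WT and Act) and Itgb2 (0.0940 and 0.107, then 0.525 and 0.533) were higher in every wound than in every NS library, and their part in the results was not tested. Keratinocyte markers were not absent. Krt10 and Krt14 were the most abundant, with group means of 584 and 1030 RPKM (WT and Act) for Krt10 in NS and 17.8 and 10.2 in 5dw, and of 238 and 344, then 233.5 and 143, for Krt14. Their summed level over 18 genes was 1368 to 5218 RPKM in NS, 459 and 543 in Act 5dw, and 199, 408 and 1750 in WT 5dw, so that WT 5dw replicate 3 stood apart from the other wound libraries. Endothelial markers summed to 6.84 to 11.9 RPKM in NS and 16.7 to 18.8 in 5dw, pericyte markers to 15.5 to 24.5 and 11.9 to 20.0, and adipocyte markers to 13.9 to 22.1 and 6.41 to 14.9. In bulk RNA, fewer cells of a type and less RNA per cell cannot be told apart.

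The genes were chosen from results of the comparison of 5dw with NS, and their wound levels are therefore given as a description with no test. By the rule applied to all genes, 7 of the 9 were higher in 5dw at an adjusted p under 0.05 in each genotype (limma, Benjamini-Hochberg over 11979 genes), beside 9.45% of all genes in WT and 9.04% in Act (58.3% and 45.6% in either direction). S100a8 and Ptx3 did not pass in either genotype, but with the replicate number as a block S100a8 passed in both, giving 8 of 9. Saa1, Hp, Lcn2, Nos2 and S100a9 passed the filter through their wound libraries alone, and nothing is read from this count. Of all genes tested, 11.4% had WT 5dw wholly above WT NS, and 14.4% had Act 5dw wholly above Act NS. The share with every wound library above every NS library was not counted, so such a separation is given as a description only.

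Saa3 had the largest log2 fold change (log2FC) of all genes tested on the log2(RPKM + 0.5) scale, in both genotypes. Its level was 1.27, 6.77 and 2.15 RPKM in WT NS and 2.28, 6.64 and 5.57 in Act NS. In wounds it was 1758, 1811 and 2319 RPKM in WT and 956 and 2063 in Act. Every wound library lay far above every NS library, and the lowest wound value belonged to Act 5dw replicate 1. The log2FC was 9.23 ± 0.50 (SE) in WT and 8.15 ± 0.56 in Act. By mean RPKM, a measure per length of transcript, Saa3 stood at rank 9 of 47643 genes in WT 5dw and rank 12 in Act 5dw, from rank 7509 and 5859 in NS.

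Saa1 was low throughout, with a higher level in wounds. It was at 0.261, 0.618 and 0.443 RPKM in WT NS and 0.551, 0.479 and 0.502 in Act NS. In 5dw it was at 1.45, 2.51 and 3.36 RPKM in WT and 2.17 and 3.47 in Act. The groups did not overlap, as held for 11.4% of all genes, higher in wounds, in WT and 14.4% in Act. The log2FC was 1.61 ± 0.25 in WT and 1.69 ± 0.28 in Act. Within a wound library Saa3 was 441 to 1210 times as high as Saa1.

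Saa2 was the only one of the 3 serum amyloid genes whose wound and NS levels overlapped. In NS it was at 0.325, 0.176 and 0.496 RPKM in WT and 0.274, 0.408 and 0.428 in Act. In 5dw it was at 0.165, 0.296 and 0.423 RPKM in WT and 0.399 and 0.448 in Act. The wound values, but for 1 WT library at 0.165, lay within the range of the NS values. Of the 31-base stretches of the Saa1 transcripts, 46.8% are also found in Saa2 or Saa3, and 44.48% of those of Saa2 in Saa1 or Saa3, so that the split of reads between Saa1 and Saa2 is uncertain. Their sum was 0.586 to 0.940 RPKM in NS and 1.62 to 3.92 in 5dw. Of the stretches of Saa3, 1.16% are shared with Saa1 or Saa2. Within a wound library Saa3 was 441 to 1210 times as high as Saa1, so this small share also leaves the wound values of Saa1 and Saa2 uncertain. The part of Saa3 reads in the values of Saa1, Saa2 and their sum was not tested.

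**Figure D1:**
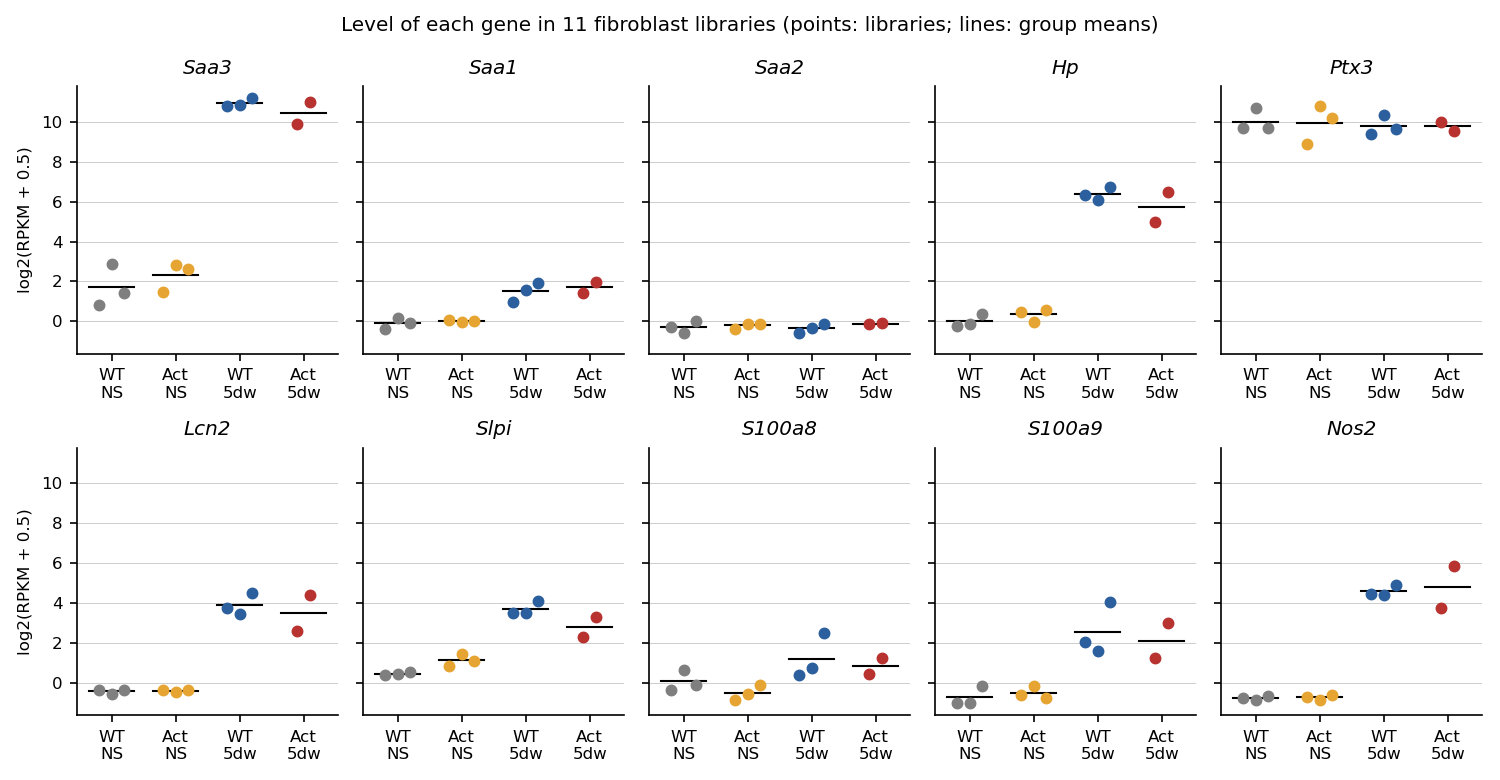
Level of each gene in the 11 libraries on the log2(RPKM + 0.5) scale, by genotype and tissue. Points are libraries and lines group means. Saa3, Hp, Lcn2, Slpi and Nos2 separate wound from NS libraries, Ptx3 is near 10 in every group, and Saa2 is near 0 in every group.

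Hp was low in NS and high in wounds. It was at 0.354, 0.399 and 0.802 RPKM in WT NS and 0.902, 0.494 and 0.972 in Act NS. Its wound level was 79.5, 66.8 and 104 RPKM in WT and 30.6 and 89.7 in Act. No wound value came near the NS values, and Act 5dw replicate 1 was again the lowest wound library. The log2FC was 6.37 ± 0.34 in WT and 5.38 ± 0.38 in Act, the latter 6.15 without Act 5dw replicate 1 and 4.61 without replicate 3.

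Ptx3 is a soluble pattern recognition molecule that binds microbes and complement C1q. Like those of Saa2, its wound and NS levels overlapped. Its level was high in every library, at 811, 1638 and 818 RPKM in WT NS and 470, 1793 and 1156 in Act NS. Its wound level was 674, 1312 and 785 RPKM in WT and 1025 and 737 in Act. The 4 groups overlapped. By mean RPKM it held ranks 26 and 20 in NS and ranks 26 and 28 in 5dw, for WT and Act respectively. The log2FC of 5dw over NS was -0.22 ± 0.46 in WT and -0.19 ± 0.51 in Act, and with the libraries scaled to a common median ratio it was 0.24 and 0.17, so that no direction can be given.

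Among the antimicrobial genes, Lcn2 was nearly silent in NS, at 9 to 22 reads per library. Its RPKM was 0.272, 0.184 and 0.282 in WT NS and 0.271, 0.222 and 0.282 in Act NS. In wounds it was 12.8, 10.5 and 21.9 in WT and 5.48 and 20.5 in Act, from 295 to 2231 reads. The lowest wound library was thus well above the highest NS library. The log2FC was 4.32 ± 0.38 in WT and 3.89 ± 0.43 in Act, values that depend on the pseudocount because the NS levels are below it (5.40 and 4.91 with a pseudocount of 0.1). In Act it was 4.80 without Act 5dw replicate 1 and 2.98 without replicate 3. The ratio of mean RPKM was 61.4 in WT and 50.4 in Act.

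Slpi was at 0.806, 0.863 and 0.970 RPKM in WT NS and 1.27, 2.25 and 1.66 in Act NS. In 5dw it was at 10.95, 10.8 and 16.6 RPKM in WT and at 4.33 and 9.29 in Act. Wound and NS libraries did not overlap in either genotype. The log2FC of 5dw over NS was 3.24 ± 0.26 in WT and 1.65 ± 0.29 in Act.

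The calprotectin genes were low and the most uneven between libraries. S100a8 was at 0.286, 1.08 and 0.436 RPKM in WT NS and 0.0602, 0.179 and 0.439 in Act NS. In wounds it was at 0.798, 1.15 and 5.09 RPKM in WT and 0.842 and 1.86 in Act. These values came from 1 to 14 reads in NS and 12 to 137 in 5dw. WT NS replicate 2 overlapped the wound libraries. The log2FC was 1.12 ± 0.49 in WT and 1.33 ± 0.55 in Act, and without WT 5dw replicate 3 the WT value was 0.48.

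S100a9 was listed at 0 in WT NS replicates 1 and 2, where 3 reads would have been 0.228 and 0.308 RPKM, and was at 0.387 RPKM in WT NS replicate 3. In Act NS it was at 0.160, 0.398 and 0.0834 RPKM. In wounds it was at 3.57, 2.52 and 16.2 RPKM in WT and 1.87 and 7.40 in Act. All 5 wound libraries (20 to 328 reads) were above all 6 NS libraries (0 to 6 reads). The log2FC was 3.29 ± 0.60 in WT and 2.62 ± 0.67 in Act, the former 2.53 without WT 5dw replicate 3, and the latter 3.49 without Act 5dw replicate 1 and 1.75 without replicate 3. S100a9 exceeded S100a8 in each wound library, by 2.19 to 4.47 times per length.

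WT 5dw replicate 3, the wound library with the highest keratinocyte sum (1750 RPKM), was also the highest wound library for both calprotectin genes. In NS, 4 libraries had higher keratinocyte sums (2349 to 5218 RPKM), with S100a9 at 0 to 0.398 RPKM and S100a8 at 0.179 to 1.08 RPKM. Krt6b, a keratin of activated epidermis chosen after its values were seen, was at 16.3, 37.3 and 163 RPKM in the WT wounds. It was at 49.3 and 56.1 in the Act wounds and at 0.178 to 5.95 in NS, and was thus higher in every wound than in every NS library. Krt6a (6.50 to 70.1 RPKM in NS, 26.9 to 265 in 5dw) and Krt16 (27.1 to 167, then 21.55 to 186) overlapped between NS and 5dw. Of the 18 keratinocyte markers, 13 passed as lower in wounds in each genotype, and 2 in WT and 1 in Act as higher. The order of the wound libraries by Krt6b was that of S100a8 but for a swap of the neighbours WT 5dw replicate 2 and Act 5dw replicate 1, whereas for S100a9 Act 5dw replicate 1 was the lowest. The part of keratinocyte RNA in the calprotectin values was not tested. Of 12 neutrophil markers, the sum was 1.12 to 1.67 RPKM in NS and 1.46 to 2.29 in 5dw. Prtn3 was the largest single contributor to that sum, at group means of 0.701 to 1.06 RPKM. Other neutrophil markers were higher in every wound library than in every NS library. They were Mmp8, with group means of 0 and 0.0286 RPKM in NS and 0.275 and 0.145 in 5dw (WT and Act), Mpo (0.0143 and 0.0283, then 0.154 and 0.168) and Csf3r (0.00495 and 0.0194, then 0.0638 and 0.0851). Ly6g, which defines mouse neutrophils, had group means of at most 0.0183 RPKM, and the granule gene Ltf of at most 0.0057. The part of neutrophil RNA in the calprotectin values was not tested.

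Nos2 was at 0.0899, 0.0608 and 0.137 RPKM in WT NS and 0.114, 0.0564 and 0.168 in Act NS, from 5 to 18 reads. In wounds it was at 21.3, 20.6 and 29.3 RPKM in WT and 12.9 and 56.7 in Act, from 1171 to 6411 reads. The 2 Act 5dw libraries were the lowest and the highest of the 5. The log2FC was 5.33 ± 0.39 in WT and 5.50 ± 0.44 in Act, and the ratio of mean RPKM 247 and 309. With a pseudocount of 0.1 the log2FC was 6.93 and 7.03, and in Act it was 6.55 without Act 5dw replicate 1 and 4.46 without replicate 3. In the wound macrophage Nos2 marks an inflammatory state, and of the macrophage markers Cd68 was at 6.16 to 12.02 RPKM in NS and 4.69 to 6.31 in 5dw, and Csf1r at 0.807 to 2.90 and 2.27 to 4.48. Adgre1, which encodes F4/80, was at most at 0.119 RPKM in any library. Fcgr1, of the same marker list, was low but higher in every wound (0.528 to 0.788 RPKM) than in every NS library (0.130 to 0.291). The part of macrophage RNA was not tested.

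**Figure D2:**
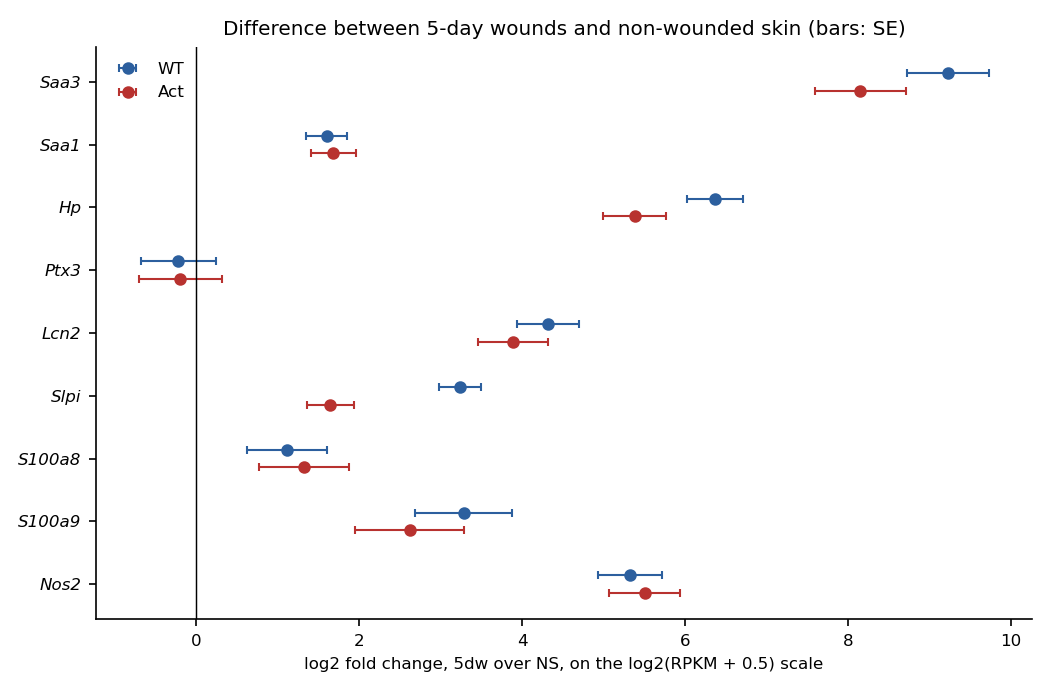
Log2FC of 5dw over NS on the log2(RPKM + 0.5) scale for the 9 genes that passed the filter, in WT and Act. Points are estimates and bars standard errors. Values run from 9.23 for Saa3 to -0.22 for Ptx3 in WT.

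The genotype comparisons were not used to choose the genes. In NS, 0 of the 9 genes passed an adjusted p of 0.05 between Act and WT (limma), beside 0.0167% of all genes (2 genes, with 824 at an unadjusted p under 0.05). In 5dw, 0 of 9 passed, beside 0.0334% of all genes (4 genes, 386 unadjusted). The difference of the wound response between genotypes, the interaction, passed in 0 of 9 genes and in 0% of all genes (400 unadjusted). In no alternative did a gene of the 9 pass in any of the 3. With 3 libraries against 3 or 2, an exact permutation test cannot go below p = 0.1, so the tests of single genes rest on the spread shared across genes.

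Slpi had the smallest unadjusted p of the 9 in both genotype comparisons and in the interaction. In NS, each Act library (1.27 to 2.25 RPKM) was above each WT library (0.806 to 0.970). The log2FC of Act over WT was 0.67 ± 0.26 with a 95% confidence interval of 0.10 to 1.24 (adjusted p = 0.688, limma). In 5dw the order was the opposite, with both Act libraries (4.33 and 9.29 RPKM) below all 3 WT libraries (10.8 to 16.6). The log2FC was -0.92 ± 0.29, with an interval of -1.56 to -0.28 (adjusted p = 0.98, limma). In NS the keratins Krt1, Krt6a and Krt6b were also higher in each Act than in each WT library. Krt1 was at 171 to 613 against 85.8 to 142 RPKM. Krt6a was at 22.03 to 70.1 against 6.50 to 11.1 RPKM and Krt6b at 1.15 to 5.95 against 0.178 to 0.819. Other keratinocyte markers did not all do this, since Krt16 and the 18-gene sum overlapped, and Krt15 was lower in each Act (18.1 to 53.2 RPKM) than in each WT library (63.9 to 84.1). The log2FC of Krt6a was 2.25 in NS (adjusted p = 0.679, limma) and its interaction -2.29 (adjusted p = 0.999, limma), and the part of keratinocyte RNA in the Slpi values was not tested. Of all genes tested, 0.993% had Act NS wholly above WT NS, 15.2% had Act 5dw wholly below WT 5dw, and 0.192% (23 genes) had both. The reverse of both held for 0.518%. The interaction was -1.59 ± 0.39 (adjusted p = 0.646, limma) and did not pass.

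For the other 8 genes the intervals bounded the genotype difference only loosely. Saa3 differed by a log2FC of 0.61 in NS, with an interval of -0.50 to 1.72 (adjusted p = 0.741, limma), and by -0.47 in 5dw, with an interval of -1.71 to 0.77 (adjusted p = 1, limma). Hp differed by 0.35 in NS (-0.41 to 1.10) and -0.64 in 5dw (-1.49 to 0.21). Nos2 differed by 0.04 in NS (-0.83 to 0.90) and 0.21 in 5dw (-0.76 to 1.18). The intervals of Lcn2, S100a8, S100a9, Saa1 and Ptx3 also held 0 in both tissues. In 5dw, where Act had 2 libraries, the intervals of all 8 but Saa1 reached beyond a log2FC of 1 in size.

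**Figure D3:**
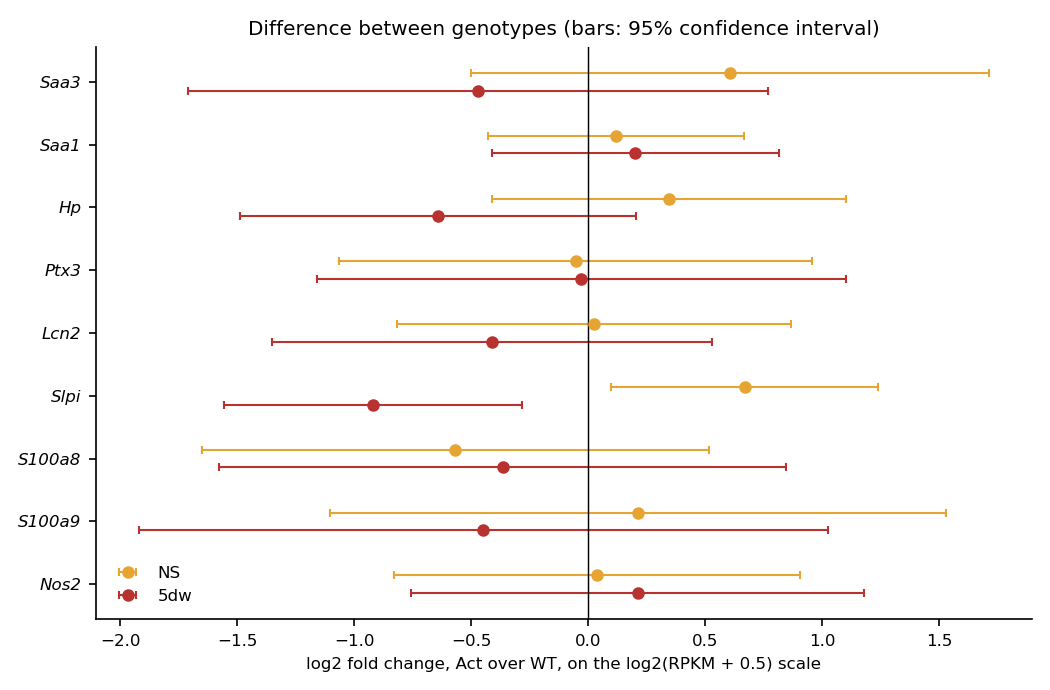
Log2FC of Act over WT on the log2(RPKM + 0.5) scale in NS and in 5dw for the 9 tested genes. Bars are 95% confidence intervals. Only the Slpi intervals leave out 0, above it in NS (0.10 to 1.24) and below it in 5dw (-1.56 to -0.28), and neither passed after adjustment over all genes.

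A single library decided the sign of several of these wound differences. Act 5dw replicate 1 was the lowest of the 5 wound libraries for Saa3, Hp, Lcn2, Nos2, Slpi and S100a9. Without it, the log2FC of Act over WT in 5dw changed from -0.47 to 0.08 for Saa3, from -0.64 to 0.13 for Hp, from -0.41 to 0.50 for Lcn2 and from -0.45 to 0.42 for S100a9. That of Slpi remained negative, at -0.41. Act 5dw replicate 3 was the highest for Nos2, Saa1 and Saa2, and without it the log2FC of Nos2 was -0.83. WT 5dw replicate 3 was the highest for Saa3, Hp, Lcn2, Slpi, S100a8 and S100a9, and without it that of S100a8 was 0.28 and that of S100a9 was 0.30.

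**Figure D4:**
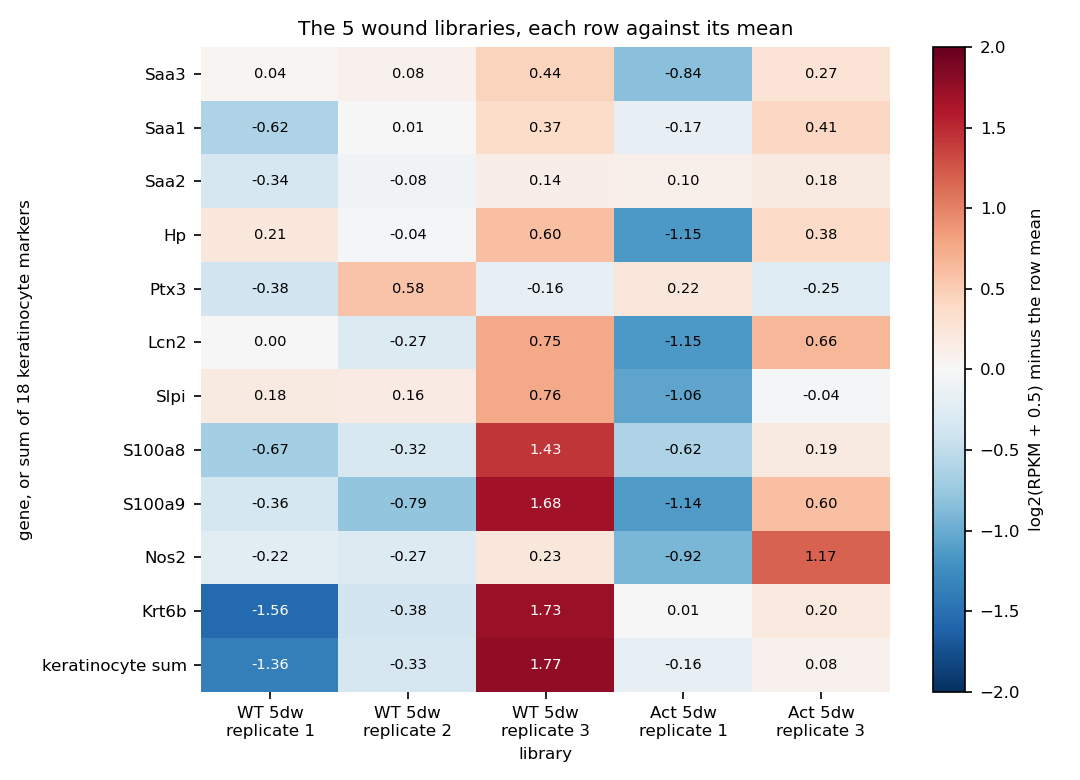
The 5 wound libraries side by side for the 10 genes, for Krt6b and for the sum of 18 keratinocyte markers. Each cell is log2(RPKM + 0.5) minus the mean of its row, so that red is above and blue below the row mean. Act 5dw replicate 1 is at -0.84 to -1.15 for Saa3, Hp, Lcn2, Slpi, S100a9 and Nos2, and WT 5dw replicate 3 is at 1.43 for S100a8, 1.68 for S100a9 and 1.77 for the keratinocyte sum.

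For Hp, Lcn2, Nos2 and S100a9 the order of the wound libraries from the lowest began with Act 5dw replicate 1, then WT 5dw replicate 2, then WT 5dw replicate 1, and WT 5dw replicate 3 and Act 5dw replicate 3 came last. The other 6 genes did not share this order. Saa3 and Slpi also began with Act 5dw replicate 1, but Slpi had Act 5dw replicate 3 next. WT 5dw replicate 1 was the lowest library for Saa1, Saa2, S100a8 and Ptx3, and WT 5dw replicate 2 was the highest for Ptx3.

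Genes of the same pathways, listed by function, were compared in 5dw and NS to place the 10 genes among them. These counts depend on the scaling of the libraries. Over all genes tested, the median log2FC stood at -0.40 in WT and -0.31 in Act, and median-ratio scaling raised it by 0.39 and 0.31. In WT, 9.45% of genes were higher and 48.8% lower as deposited, against 22.4% and 22.2% after scaling, and in Act 9.04% and 36.5% against 19.9% and 20.8%. The counts below are of genes that passed in the same direction under both, which held for 9.45% of all genes as higher and 22.2% as lower in WT, and for 9.04% and 20.8% in Act. Several of the counts lie near these shares, and nothing particular to a list is read from them.

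Of 34 other acute-phase genes, 17 passed the filter, 7 were higher and 2 lower in WT 5dw, and 6 were higher and 2 lower in Act 5dw. The 7 were the serpins Serpina3f, Serpina3g, Serpina3m and Serpina3n, the protease inhibitor A2m, the lipopolysaccharide receptor Cd14 and the metalloreductase Steap4, of which Steap4 did not pass in Act. Serpina3g went from 2.59 to 29.6 RPKM in WT (log2FC 3.23 ± 0.26) and from 1.92 to 19.7 in Act. Serpina3n, which inhibits serine proteases, went from 158 to 304 RPKM in WT and from 157 to 280 in Act. The liver genes Orm1 and Crp were the 2 that fell, Orm1 from 4.56 to 0.507 RPKM in WT. Of the 4 most abundant genes of the list, Tnfaip6, an inducible hyaluronan-binding protein, was at 1193 RPKM in WT NS and 1366 in WT 5dw, and the metallothioneins Mt1 and Mt2 were at 462 and 831 in WT NS and 445 and 1179 in WT 5dw. These 3 did not pass as deposited in either genotype. The liver genes Fga, Fgb, Apcs and Mbl1 had group means of at most 0.0236 RPKM, and Saa4 of at most 0.0314.

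Of 33 other antimicrobial genes, 17 passed the filter. In WT, 2 were higher (Reg3g and Chil1) and 5 lower (Defb6, Pglyrp3, S100a7a, Wfdc1 and Rnase4), and in Act 2 were higher and 6 lower. Reg3g, a lectin that kills Gram-positive bacteria, was listed at 0 in all WT NS libraries and had a mean of 2.07 in WT 5dw. The beta-defensin Defb6 had a mean of 56.3 RPKM in WT NS and 1.46 in WT 5dw, moving with the keratinocyte markers, whose part in this was not tested. Rnase4, a secreted ribonuclease, went from 512 to 268 RPKM in WT and from 492 to 247 in Act. The calcium-binding proteins S100a6 and S100a11, of the same family as the calprotectin genes, were at 211 and 577 RPKM in WT NS and 188 and 659 in WT 5dw, and S100a10 was at 227 and 139.

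Of 18 genes of nitric oxide and arginine metabolism, 15 passed the filter, and 4 rose in both genotypes. They were Ass1, which with Asl regenerates arginine from citrulline, Arg1, which breaks arginine down to ornithine, Odc1, which makes putrescine from ornithine, and Ddah1, which degrades methylated arginines that inhibit nitric oxide synthases. Ass1 went from 3.69 to 19.0 RPKM in WT (log2FC 2.23 ± 0.25) and from 4.50 to 20.95 in Act, where the wound libraries were at 12.7 and 29.2. Odc1 went from 57.9 to 168.5 RPKM in WT, and Ddah1 from 5.26 to 24.9. Ddah2 was at 56.0 in WT NS and 30.4 in WT 5dw. Gch1, the first enzyme in the synthesis of the Nos2 cofactor tetrahydrobiopterin, was at 10.6 and 6.13 RPKM in WT, and 11.2 and 4.53 in Act, where it passed as lower. Nos1 and Nos3, the neuronal and endothelial synthases, had group means of at most 0.372 and 0.178 RPKM.

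Of 25 cytokines and receptors that induce acute-phase genes, 21 passed the filter. In WT, 3 were higher (Il11, Lif and Il1a) and 4 lower (Il6ra, Il1rn, Tlr2 and Tlr4), and in Act 1 was higher (Il11) and 6 lower. Il11 went from 1.33 to 10.5 RPKM in WT (log2FC 2.60 ± 0.41) and from 1.36 to 10.5 in Act, where the 2 wound libraries were at 3.49 and 17.4. Il6 was high in all groups, with means of 365 and 368 RPKM in NS and of 304 and 306 in 5dw, for WT and Act. Its log2FC was -0.21 ± 0.37 in WT. Il6ra, its ligand-binding receptor subunit, went from 11.5 to 3.10 RPKM in WT, and the shared subunit Il6st was at 61.7 and 38.9. Myd88, the adaptor of interleukin-1 and Toll-like receptors, was at 68.2 and 37.0 RPKM in WT, and Il11ra1 at 72.1 and 50.9.

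Of 22 signalling genes and transcription factors, 21 passed the filter. Nfkbiz, the inducible nuclear cofactor of NF-kB, was the 1 that rose, from 86.0 to 147 RPKM in WT (log2FC 0.77 ± 0.16) and from 77.5 to 141 in Act. In WT 6 fell (Cebpa, Cebpd, Bcl3, Irf1, Nfkbie and Traf3ip2), and in Act 8. Cebpd, the C/EBP member known for its rise in the acute phase, went from 207 to 82.2 RPKM in WT (log2FC -1.43 ± 0.28) and from 162 to 60.8 in Act, and Cebpa from 25.7 to 5.99 in WT. Cebpb was at 63.5 and 34.5 RPKM in WT and 51.8 and 43.5 in Act, and was not among those that passed under both scalings. Nfkbia, the inhibitor of NF-kB, was at 395 RPKM in WT NS and 410 in WT 5dw, and Socs3, the feedback inhibitor of the interleukin-6 receptor, at 369 and 283.

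Of 22 receptors and binding partners of the 10 proteins, 13 passed the filter, 2 were higher and 4 lower in WT 5dw, and 3 were higher and 3 lower in Act 5dw. Mmp9, the gelatinase that Lcn2 binds, rose from 1.27 to 19.1 RPKM in WT (log2FC 4.00 ± 0.57) and from 0.368 to 22.3 in Act. Mmp2 rose from 612 to 840 RPKM in WT and from 569 to 901 in Act. Fgf2, a ligand of Ptx3, and Tlr4, a receptor of calprotectin, fell in both genotypes. The scavenger receptor of haptoglobin, Cd163, and the formyl peptide receptors for serum amyloid A, Fpr1 and Fpr2, had group means of at most 0.534 RPKM. Hmox1, which degrades haem, was at 136 RPKM in WT NS and 112 in WT 5dw, Lrp1, the receptor of the haem-haemopexin complex, at 118 and 102, and Anxa2 at 240 and 220. None of the genes in these 6 lists passed between genotypes or in the interaction (limma).

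The genes whose pattern over the 11 libraries was most like the mean of the 9 standardized genes were Slc39a14, P4ha1, Timp1, Sgk1 and Csf3 (Pearson's r of 0.983 to 0.987, a description that mostly reflects the gap between NS and 5dw). Slc39a14, a zinc and iron importer, was at 6.67 to 10.98 RPKM in NS and 28.1 to 39.4 in 5dw. Csf3, the granulocyte growth factor, was at 1.07 to 2.20 RPKM in NS and 9.17 to 24.3 in 5dw, and like Saa3 was lowest in Act 5dw replicate 1 among the wounds. With the group means removed, the genes most like Ptx3 were Il13ra1, Cxcl1 and Zdhhc20, those most like Saa3 were Il13ra2, Sod2 and Tnfrsf10b, and those most like Hp were Pgf, Msra and Mif. The neutrophil chemokine Cxcl1 was at 831 to 2157 RPKM in NS and 2787 to 3959 in 5dw.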

How the data were processed

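The values analysed were deposited by the authors as RPKM per gene symbol in 11 libraries of poly-A RNA, sequenced as single 100 bp reads. Per the paper's methods and the labels, the authors used GRCm38 and CLC Genomics Workbench, and compared groups with the edgeR exact test on counts. RPKM values are not counts, so that test was not repeated. The authors excluded 1 Act 5dw library at quality control.

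From the deposited RPKM, log2(RPKM + 0.5) was fitted with limma 3.58.1 (R 4.3.3), with 1 mean for each of the 4 groups, 7 residual degrees of freedom and a variance trend, over the 11979 genes at 1 RPKM or more in at least 2 libraries. The p-values were adjusted by Benjamini-Hochberg over these genes and called at 0.05. A fold change on this scale understates that of low genes. Mapped read totals were recovered where RPKM times exon length (GENCODE M21) gave whole reads within 0.03. For Saa1, Saa2, Saa3, Hp and Ptx3 these lengths did not give whole reads, so no read numbers are printed for them. A floor of 3 reads covers counting error only. The read recovery and the fit were tested on simulated data.

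The 10 genes and the gene lists were chosen with earlier results of these data known. Beyond the 10, the rule named, from each pathway list, the 4 genes with the highest mean RPKM and any called between genotypes or in the interaction. From each marker list it named the 2 with the highest mean RPKM and any at 0 throughout. It added the 5 genes most like the mean pattern, the 3 most like each of the 3 most abundant members, and any gene called in both genotype comparisons. Others were named to complete a count or beside a result, after their values were seen. A macrophage marker, and the summed level of that list, are not reported here, and other marker genes of the rule are given only within the sum of their list. Same-numbered libraries deviated together from their group means between WT NS and Act NS (3 pairs, r of 0.334 to 0.554, against -0.467 to 0.187 for the 6 other pairs) and between WT NS and WT 5dw (0.109 to 0.188, against -0.199 to 0.08). The values were -0.078 and 0.189, against -0.313 to 0.313, between WT 5dw and Act 5dw. Between Act NS and Act 5dw they were 0.019 and 0.143, against -0.144 to 0.144. These comparisons cannot decide, because the deviations of 2 Act 5dw libraries from their mean are exact opposites, which makes the ranges mirror themselves. Since every pair was over 0.1 in the first 2 comparisons, a fit with the replicate number as a block was an alternative. The other alternatives were another pseudocount, filter or scaling, the compared groups alone, leaving out each library, and limma-voom on read numbers for 11591 genes, the last chosen after seeing the data. Whole reads were recovered for 6443 of these, and for the rest, Saa1, Saa3, Hp and Ptx3 among them, the numbers were estimates from the GENCODE length, rounded.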

Additional observations from a re-analysis of the deposited data

Results flagged for a closer look

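Slpi was picked out because its genotype groups did not overlap in either tissue and lay in opposite orders. The log2FC also had opposite signs in NS and 5dw for Saa3, Hp, Lcn2 and S100a9, whose groups overlapped. The 3 Act NS libraries were all above the 3 WT NS libraries, and the 2 Act 5dw libraries were both below the 3 WT 5dw libraries. The interaction of wounding and genotype was -1.59 on the log2 scale (95% confidence interval -2.45 to -0.73, adjusted p = 0.646, limma), and it did not pass the threshold. Over the alternatives it lay between -2.10 and -1.08, with adjusted p from 0.257 to 1. Of all genes tested, 0.192% showed the same order without overlap and 0.518% the opposite one.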

How the results depend on the processing

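The 0 calls among the 9 genes between genotypes and in the interaction, and the directions of Slpi, held in each alternative run. With an RPKM of at least 5, Saa1 and S100a8 were not among the genes tested. In 5dw against NS, from which the genes were chosen, 6 to 8 of those tested counted as called. With the replicate block 8 of the 9 did in each genotype, S100a8 added. S100a9 in Act did not count without Act 5dw replicate 3 or by limma-voom. Nothing is read from these counts. With an RPKM of at least 5 the genes called fell to 3771 in WT and 3104 in Act, where fewer genes were tested. Leaving out 1 library gave 5791 to 7355 calls in WT and 3509 (without Act 5dw replicate 3) to 5874 in Act. Calls between genotypes in NS were 9 with no filter, 1 with an RPKM of at least 5, 0 with the compared groups alone, 1 by limma-voom and 0 to 7 without 1 library. In 5dw they were 18 with no filter, 2 with median-ratio scaling, 2 by limma-voom and 0 to 4 without 1 library. For the interaction they were 10 with no filter and 0 to 2 without 1 library. The cause was not tested.

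Several values changed sign. With median-ratio scaling Ptx3 was 0.0892 in NS, 0.0137 in 5dw and -0.0755 in the interaction, and by limma-voom, where reads of Saa1 were estimates, its interaction was -0.0592. With the replicate block, the paired fit, Ptx3 between genotypes in 5dw was 0.32 and Ptx3 in Act wounds over NS 0.16. The block changed no other direction, and beyond S100a8 no other call, of the 9 genes. Without 1 library the genotype log2FC in NS ranged from -0.0243 to 0.25 for Saa1, -0.0365 to 0.0603 for Lcn2, -0.48 to 0.49 for Ptx3 and -0.0264 to 0.11 for Nos2. In 5dw it ranged from -0.0855 to 0.49 for Saa1, -1.03 to 0.0837 for Saa3, -1.41 to 0.13 for Hp, -1.32 to 0.50 for Lcn2, -0.27 to 0.26 for Ptx3, -0.83 to 1.26 for Nos2, -0.77 to 0.28 for S100a8 and -1.32 to 0.42 for S100a9. The interaction ranged from -0.21 to 0.37 for Saa1, -1.34 to 0.47 for Lcn2, -0.51 to 0.45 for Ptx3, -0.87 to 1.22 for Nos2, -0.21 to 0.85 for S100a8 and -1.53 to 0.21 for S100a9. Depth limits S100a8, S100a9, Lcn2 and Nos2 in NS, where libraries held at most 22 reads of each.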
